A study of Mus musculus with 6 samples.

Results

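Pleiotrophin, midkine, the syndecans and the glypicans were examined by RNA-seq in the established NOR-10 line of fibroblasts from mouse skeletal muscle. The 10 genes are Ptn and Mdk (ligands), Sdc1, Sdc2, Sdc3 and Sdc4 (syndecans), and Gpc1, Gpc3, Gpc4 and Gpc6 (glypicans), out of 34745 genes in the deposited table. They were chosen by name and function, with their counts in this same comparison of D-gal with control already known, so their differences are given as a description without p-values. The D-gal group received D-gal, a sugar used to induce senescence, at 20 mg/mL for 3 days, and the control group received an equal amount of PBS. Each group had n = 3 libraries. All 6 libraries came from the same unmodified cell line, and whether the replicates were separate cultures is not given in the sources used here, so the errors and p-values measure only the spread between these libraries, which may be technical.

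Pleiotrophin and midkine are small secreted cytokines, rich in basic residues, that bind heparin and the heparan sulfate chains of cell surface proteoglycans. Syndecans are transmembrane core proteins and glypicans are core proteins held on the membrane by a lipid (GPI) anchor. Both carry heparan sulfate chains, which hold growth factors at the cell surface and present them to their receptors. In muscle, these proteoglycans are known for regulating FGF, HGF and Wnt signals to satellite cells, and pleiotrophin is known as a growth factor for nerve and bone cells.

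Total counts ranged from 16876087 to 20830349 for control and from 13759108 to 15157064 for D-gal, so every D-gal library was shallower than every control library. Mitochondrially encoded genes took 4.26% to 4.44% of counts for control and 4.87% to 4.98% for D-gal. Of 12 fibroblast markers, 10 had at least 1 FPKM (counts scaled by a length assigned to each gene and by library size) in every library. Lum and Fap did not exceed 0.0424 FPKM. The myogenic markers Pax7, Myf5 and Myod1 were listed at 0 in every library. S100a4, the highest fibroblast marker in every library, had 555, 489 and 542 FPKM in controls 1 to 3 and 728, 375 and 472 with D-gal. In FPKM, all D-gal libraries were below all controls for Col1a1, Col1a2, Col3a1, Dcn, Pdgfra, Thy1 and Vim. They were above all controls for Pdgfrb and Postn. The summed FPKM of the fibroblast markers was 1490 to 1550 for control and 1090 to 1450 for D-gal. That of 8 leukocyte markers, most of it Cd14, was 12.7 to 24.9 and 23.2 to 27.3. For Itgam, which has another, overlapping entry of the same name, only the entry with more counts was used. The sums of the myogenic, endothelial, adipocyte and Schwann cell markers did not exceed 2.76 in any library. The part of these differences in the results below was not tested.

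Of the 10 genes, 9 passed the filter on low counts and were fitted among 13407 genes with edgeR, and Mdk did not pass. A gene was called differentially expressed at an adjusted p-value under 0.05 when the log2 fold change also reached 1 or -1, which 1 of the 9 met, Ptn. Over all genes tested, 4.21% met both criteria in either direction, and 1.83% met both and were lower. The adjusted p-value alone was met by 6 of the 9, against 34.8% of all genes tested. Ptn, Sdc1, Sdc3 and Gpc1 were lower in the D-gal group (17.8% of all genes were) and Sdc2 and Gpc4 were higher (16.9% of all genes were). Sdc4, Gpc3 and Gpc6 passed neither criterion. The D-gal and control libraries did not overlap in 6 of the 9 genes, as in 49.1% of all genes tested. The median log2 fold change of the 9 was -0.15, beside 0.0036 for all genes tested. Nothing is read from these shares, since the genes were chosen with this comparison known. In bulk RNA, fewer cells that express a gene and less RNA per cell cannot be told apart.

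**Figure D1:**
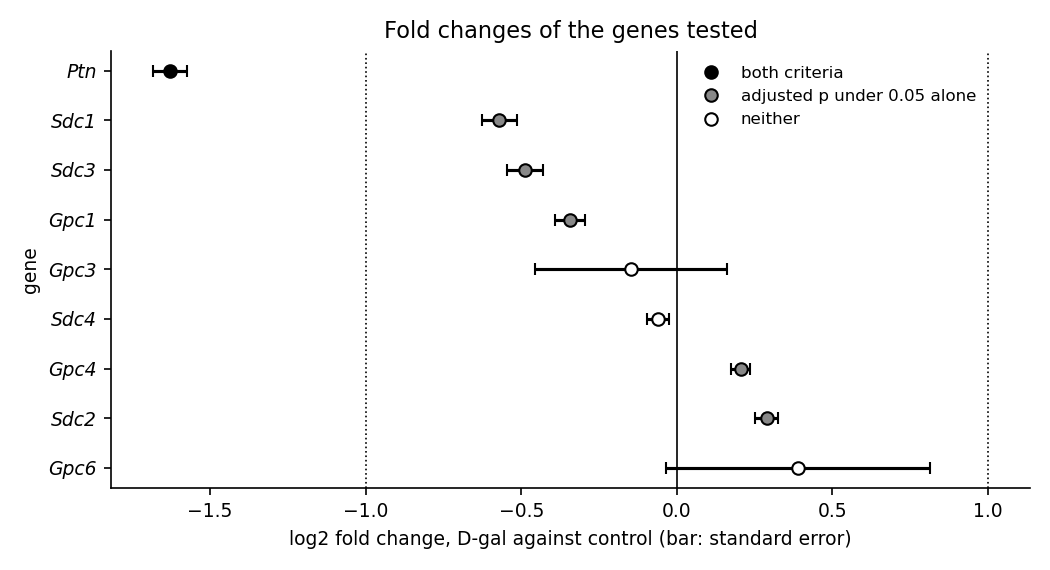
Log2 fold change of D-gal against control for the 9 genes tested, with the standard error as a bar. Black points met both criteria, grey points the adjusted p-value alone and white points neither, and the dotted lines mark a log2 fold change of 1 in either direction. Ptn lies at -1.63 and the other genes between -0.57 and 0.39.

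Ptn (ENSMUSG00000029838) is encoded on chromosome 6 (GRCm38, 36714929 to 36810220, minus strand), with 2 annotated coding transcripts. Its normalized counts, that is counts after scaling all libraries to the same TMM-adjusted depth, were 8965, 8657 and 8835 in control replicates 1 to 3. In D-gal replicates 1 to 3 they were 3022, 2607 and 2926. The groups lay far apart, and the highest D-gal library was below every control library by more than the whole range within either group. The means were 8819 ± 155 and 2851 ± 218 (SD, n = 3), a log2 fold change of -1.63 (SE, standard error, 0.05), so the level was 3.09-fold lower under D-gal. In size this fall was number 72 among the 246 genes called lower. On the FPKM scale, Ptn had 133.7 ± 2.49 in the control group, above 98.2% of the genes tested, and 44.3 ± 3.25 in the D-gal group, above 92.9% of them. These percentages depend on the length by which each gene's FPKM was divided. Dropping any single library gave log2 fold changes of -1.67 to -1.57. Ptn shares 1.29% of its 31-base words with other annotated transcripts, and no other gene overlaps its exons.

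Mdk (ENSMUSG00000027239), the other member of this cytokine family, lies on chromosome 2 from 91929805 to 91932297. It had 2, 9 and 2 counts in controls 1 to 3, against 2, 0 and 1 with D-gal. These 16 counts in all were too few for a fold change, and a count of 0 allows up to 3 counts at that depth, a limit that covers counting error only. On the FPKM scale, Ptn made up 99.8% or more of the summed ligands in every library. Midkine transcripts were near the detection limit in both groups, and no difference was detectable at this depth.

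Sdc1 (ENSMUSG00000020592, chromosome 12, 8771323 to 8793715), an epithelial and plasma cell syndecan that fibroblasts also make, had 2614, 2623 and 2427 normalized counts in controls 1 to 3. It had 1686, 1631 and 1847 in the D-gal libraries. All D-gal libraries were below all control libraries. The means of the normalized counts were 2555 ± 111 and 1721 ± 112 (SD, n = 3), and with a log2 fold change of -0.57 (SE 0.06) the level was 1.48-fold lower. Beside this, the summed FPKM of 6 epithelial markers, most of it Krt19, was 13.0 to 13.8 for control and 8.65 to 9.65 for D-gal. Cdh1 made up most of the rest. Epcam was at 0 in every library, and Krt5, Krt8 and Krt18 did not exceed 0.133 FPKM. The part of these markers in the result was not tested.

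Sdc3 (ENSMUSG00000025743, chromosome 4, 130792537 to 130826319), known as N-syndecan and as a receptor for pleiotrophin in neurons, had 1546, 1593 and 1596 normalized counts in controls 1 to 3, against 1206, 1038 and 1130 with D-gal. The lowest control library was above the highest D-gal library. Its log2 fold change was -0.49 (standard error 0.06). Gm12970 and Gm26716 overlap it on the other strand, and both had 0 counts in every library.

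Sdc2 (ENSMUSG00000022261, chromosome 15, 32920723 to 33034730), the fibroblast syndecan known as fibroglycan, moved the other way. Its normalized counts were 2228, 2157 and 2268 in controls 1 to 3, against 2631, 2771 and 2726 with D-gal, and all D-gal libraries were higher. The log2 fold change was 0.29 (standard error 0.04).

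Sdc4 (ENSMUSG00000017009, chromosome 2, 164424247 to 164443887), a focal adhesion syndecan that works with integrins, had 5826, 5514 and 5678 normalized counts in controls 1 to 3. The D-gal libraries had 5552, 5283 and 5474, which overlapped the control range. Its log2 fold change of -0.06 (standard error 0.03) did not pass the threshold.

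The summed FPKM of the 4 syndecans was 191.3, 183.9 and 186.7 in controls 1 to 3, against 183.9, 179.9 and 185.6 with D-gal, so the groups overlapped. The means were 187.3 ± 3.75 and 183.1 ± 2.96 (SD, n = 3), a ratio of 0.978. Per kilobase of merged exons these sums were 219.5 to 227.8 and 209.2 to 216.9, without overlap, and the ratio was 0.957. With FPKM divided by the TMM factor of each library, lengths unchanged, the ratio was 0.955. Whether the groups overlapped thus depended on the scale. Sdc2 took 18.7% ± 0.379 of the summed FPKM for control and 23.9% ± 0.985 for D-gal, while Sdc1 took 12.5% ± 0.596 and 8.79% ± 0.459. Sdc3 took 7.11% ± 0.248 and 5.30% ± 0.323, and these 3 shares did not overlap between the groups. Sdc4 held most of the sum in both groups, 61.7% ± 0.553 and 62.0% ± 0.7 (SD, n = 3 for each share). The shares depend on the lengths behind FPKM. Per kilobase of merged exons, Sdc1 (39.5) was above Sdc2 (37.0) in the control group but below it with D-gal (27.2 against 46.3).

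**Figure D2:**
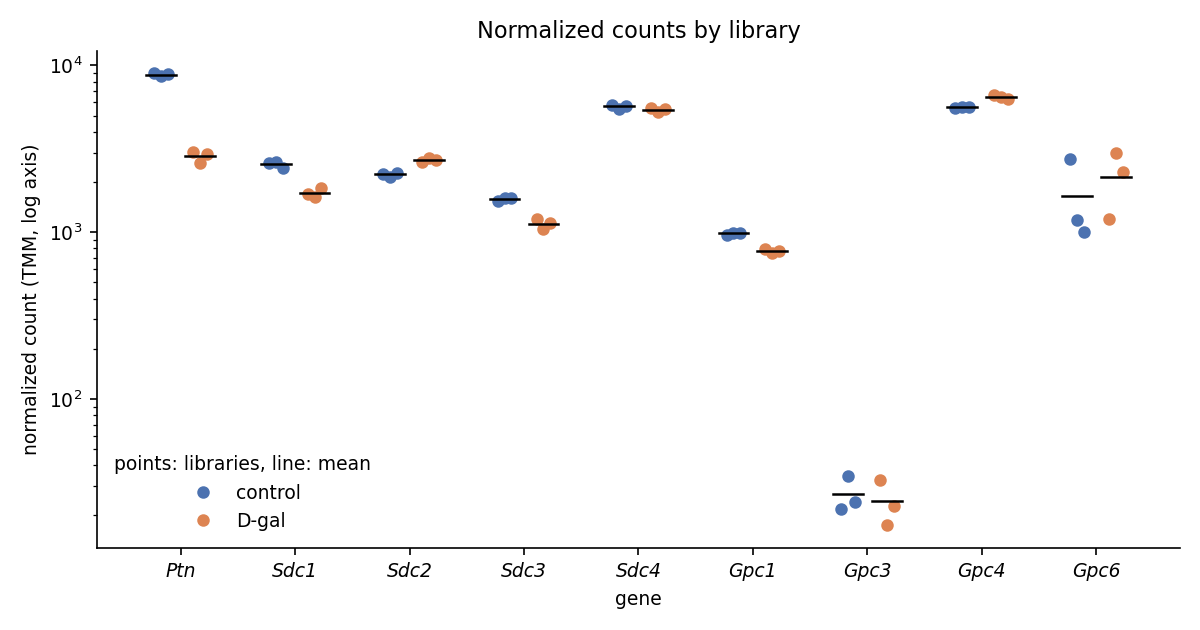
TMM-normalized counts on a log axis for the 9 genes tested, with 1 point per library and a line at the mean of each group of 3. Control and D-gal points separate most for Ptn (means 8819 and 2851), overlap for Sdc4, Gpc3 and Gpc6, and spread widely within both groups for Gpc6. Mdk, with 16 counts in all, is not drawn.

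Bases upstream of the start are shown for Ptn, Sdc1 and Sdc3, the genes with the largest differences among the 6 of the 10 that have an entry in the RefSeq promoter table (GRCm38.p6). Each stretch runs 5′ to 3′ on the gene's own strand from 250 bases before the RefSeq start, and ends before the first annotated exon of the gene. The stretches are chr6:36810221-36810429 (minus strand, 209 bases) for Ptn, chr12:8771146-8771322 (plus strand, 177 bases) for Sdc1 and chr4:130792287-130792536 (plus strand, 250 bases) for Sdc3. Capitals mark GGGCGG, the GC box, read on either strand.
Ptn: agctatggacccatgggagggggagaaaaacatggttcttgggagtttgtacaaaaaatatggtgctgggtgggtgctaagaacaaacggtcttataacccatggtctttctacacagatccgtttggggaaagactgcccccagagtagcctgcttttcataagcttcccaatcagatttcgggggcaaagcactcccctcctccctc
Sdc1: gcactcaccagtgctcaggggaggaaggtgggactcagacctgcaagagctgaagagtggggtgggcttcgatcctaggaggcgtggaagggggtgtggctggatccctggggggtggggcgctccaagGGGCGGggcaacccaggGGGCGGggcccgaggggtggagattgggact
Sdc3: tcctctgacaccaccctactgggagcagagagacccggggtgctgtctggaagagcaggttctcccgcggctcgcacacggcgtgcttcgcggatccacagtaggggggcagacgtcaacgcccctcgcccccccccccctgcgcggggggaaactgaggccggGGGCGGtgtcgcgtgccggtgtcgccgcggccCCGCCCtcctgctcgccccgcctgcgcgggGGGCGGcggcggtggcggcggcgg
The GC box letters occurred 0 times in the Ptn stretch, 2 times in that of Sdc1 and 3 times in that of Sdc3. Of 32851 RefSeq windows cut to the same length, 26.5%, 20.6% and 32.7% held them at least once. CG dinucleotides numbered 3 in the Ptn stretch, 6 in the Sdc1 stretch and 32 in the Sdc3 stretch, beside medians of 4, 3 and 6 in windows of the same length. The stretches of these genes, all lower under D-gal, thus differed widely in base composition, from 49.8% G and C in Ptn to 76.4% in Sdc3. A core promoter element spelled TATAAA was searched on both strands and occurred in none of the 3 stretches, and 8.26% to 12.4% of the windows held it. The letters of an AP-1 site, spelled TGANTCA, were also absent on both strands, as they were from most windows (4.84% to 6.75% held them). The NFAT core, spelled TGGAAA, did not occur either and was in 14.4% to 18.6% of the windows.

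Among the glypicans, Gpc4 (ENSMUSG00000031119, chromosome X, 52053021 to 52165252), a carrier of FGF and Wnt ligands, was the most abundant. It had 5538, 5664 and 5627 normalized counts in controls 1 to 3, against 6612, 6508 and 6279 with D-gal. The D-gal libraries were all higher, with a log2 fold change of 0.21 (SE 0.03). Gpc4 took 88.2% ± 2.54 of the summed glypican FPKM for control and 89.4% ± 2.06 for D-gal (SD, n = 3). This share also depends on the lengths behind FPKM. Per kilobase of merged exons Gpc4 had 124 and 147, and Gpc6, which has the longest FPKM divisor among the members, had 15.1 and 20.2.

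Gpc1 (ENSMUSG00000034220, chromosome 1, 92831645 to 92860779), a glypican known for binding FGF2, had 960.3, 991.4 and 993.7 normalized counts in controls 1 to 3. The D-gal libraries had 794.6, 751.3 and 773.6, all lower. The log2 fold change was -0.34 (standard error 0.05). Ankmy1 overlaps it on the other strand and had at most 5 counts in a library. Read on the other strand, 18.4% of the 31-base words of Gpc1 recur in other annotated transcripts. The part of these words held by Ankmy1 was not computed.

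Gpc3 (ENSMUSG00000055653, chromosome X, 52272426 to 52613950), which binds Hedgehog ligands and is mutated in an overgrowth syndrome, had 25, 42 and 24 counts in controls 1 to 3, against 29, 16 and 19 with D-gal. The ranges overlapped, and the log2 fold change of -0.15 (standard error 0.31) did not pass the threshold. Without control replicate 2 it was 0.08 and without D-gal replicate 2 it was 0.05, so its direction depended on single libraries. Gpc3 and Gpc4 lie near each other on the minus strand with 107173 bases between them, yet the control FPKM of Gpc4 was 245-fold that of Gpc3.

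Gpc6 (ENSMUSG00000058571, chromosome 14, 116925297 to 117979529), a close relative of Gpc4, varied more between replicates than any other member with at least 200 counts. Its normalized counts were 2756, 1179 and 995.7 in controls 1 to 3, against 1204, 2967 and 2298 with D-gal. Control replicate 1 lay among the high D-gal libraries and D-gal replicate 1 among the low control libraries. The means were 1643 ± 967 and 2156 ± 890 (SD, n = 3), and the log2 fold change of 0.39 (standard error 0.42) did not pass the threshold. Leaving out 1 library moved it between 0.09 (without D-gal replicate 2) and 0.99 (without control replicate 1), never past the threshold. The highest control library was 2.77-fold the lowest, and the highest D-gal library was 2.46-fold the lowest.

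As a description of the same counts, of the 9208 genes with a mean of at least 200 counts, 164 (1.78%) had a range over 2-fold within a group and 38 (0.413%) within both groups, Gpc6 among them. The median range was 1.09-fold in the control group and 1.10-fold in the D-gal group. The 7 other members at this depth were tight, with ranges of at most 1.08-fold in the control group and 1.16-fold in the D-gal group. Control replicate 1 also stood out in Csf1r, a macrophage marker, with 1.24 FPKM against 0.311 and 0.162 in the other controls, and in Cd68, with 4.15 FPKM against 2.11 and 1.46. Ptprc, the leukocyte common antigen, was highest there too, at 0.0248 FPKM, but close to 0 in every library. Cd14, Itgam and Adgre1 were also highest there, whereas Cd79a was lowest there (0.106, 0.132 and 0.122 FPKM in controls 1 to 3), unlike Gpc6. With D-gal, Csf1r had 0.149, 0.281 and 0.211 FPKM in replicates 1 to 3, in the same order as Gpc6, but on only 13, 25 and 17 counts. Among the 8 leukocyte markers, Cd79a also had this order (0.0924, 0.226 and 0.15). Cd68 (1.56, 1.82 and 1.83), Cd14 (21.4, 22.3 and 25.0) and Itgam (0.0383, 0.025 and 0.0551) did not. Neither did Adgre1 (0.0187, 0.0183 and 0.0201) or Ptprc (0.005, 0 and 0.00809), and Cd3e was at 0 throughout. Whether these differences have a part in the spread of Gpc6 was not tested.

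**Figure D3:**
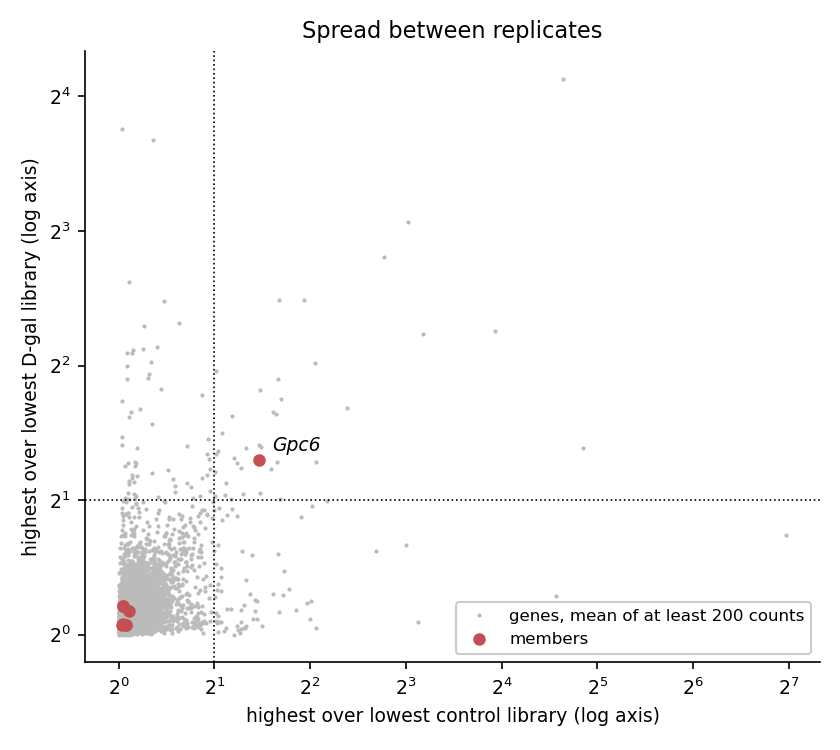
Highest over lowest normalized count within the control group (horizontal) and within the D-gal group (vertical), both on log axes, for 9208 genes with a mean of at least 200 counts (grey) and the 8 members among them (red). Dotted lines mark 2-fold. Gpc6 lies at 2.77 and 2.46, and the other red points lie at or below 1.08 and 1.16.

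The summed FPKM of the 4 glypicans was 144.5, 140.7 and 138.6 in controls 1 to 3, against 163.2, 169.0 and 160.9 with D-gal, without overlap. The means were 141.3 ± 3.0 and 164.4 ± 4.19 (SD, n = 3), a ratio of 1.16, and Gpc4 carried most of the difference. The corresponding ratio was 0.331 for the ligands, from 133.8 ± 2.40 to 44.3 ± 3.28 (SD, n = 3). The ligand sum was below the syndecan sum in all 6 libraries. It was also below the glypican sum in all 6 on the deposited FPKM scale, but per kilobase of merged exons the ligand sum was the higher in control replicates 2 and 3 (148.7 against 148.5 and 151.1 against 145.5), so their order in the control group depended on the gene lengths. In the D-gal libraries the ligand sum was the lower on both scales.

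**Figure D4:**
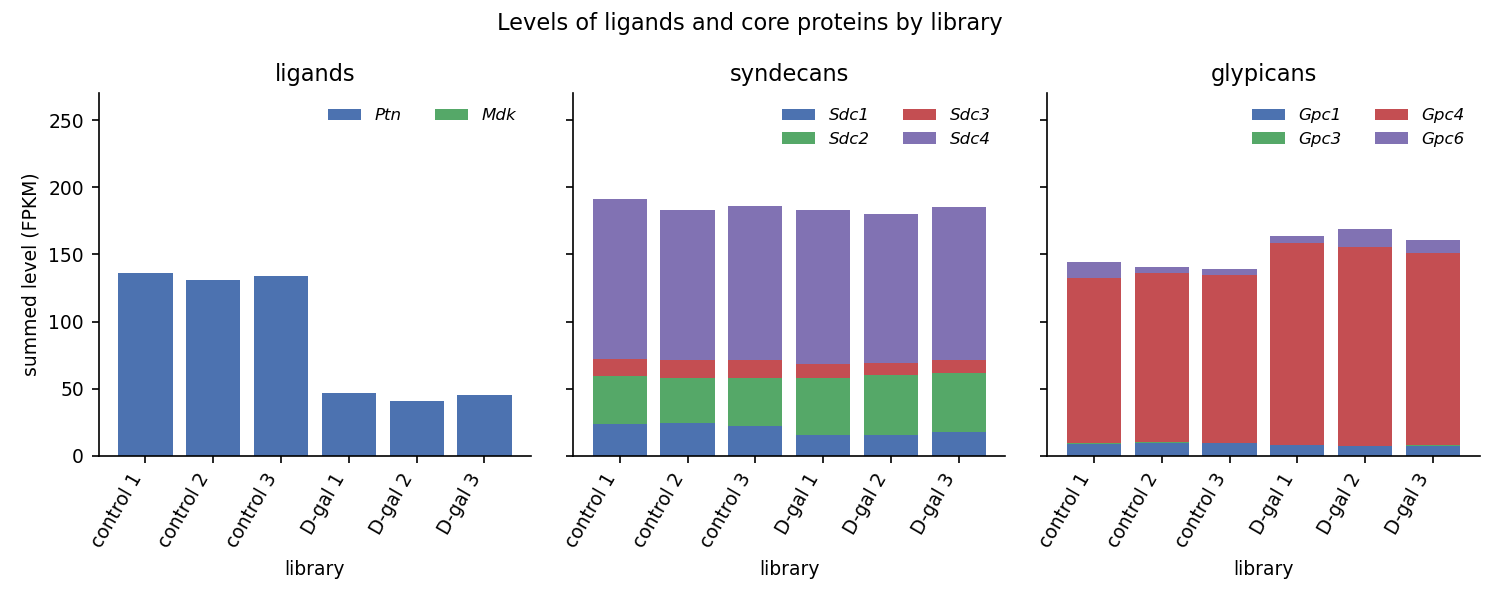
Stacked bars of FPKM for ligands, syndecans and glypicans in each of the 6 libraries, coloured by gene. The segments of Mdk and Gpc3 are too small to see. The ligand bars consist almost wholly of Ptn and average 133.8 in control and 44.3 in D-gal libraries, the syndecan bars average 187.3 and 183.1, and the glypican bars, mostly Gpc4, average 141.3 and 164.4.

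FPKM divides by a length assigned to each gene, and comparisons between genes depend on that length. On this scale, the control order was Ptn (134), Gpc4 (124), Sdc4 (116), Sdc2 (35.0), Sdc1 (23.3), Sdc3 (13.3), Gpc1 (9.19), Gpc6 (7.09), Gpc3 (0.507) and Mdk (0.119). Only Gpc1 and Gpc6 overlapped among neighbours in this order. In the D-gal group the order was Gpc4 (147), Sdc4 (114), Ptn (44.3), Sdc2 (43.8), Sdc1 (16.1), Sdc3 (9.72), Gpc6 (9.53), Gpc1 (7.41), Gpc3 (0.471) and Mdk (0.0378). Here Ptn overlapped with Sdc2, and Gpc6 with both Sdc3 and Gpc1. Ptn thus moved from the first to the third place. The lengths behind the FPKM values often exceed the annotated exons. Gpc6 was divided by 13646 bases, whereas its annotated exons cover 6425, and Sdc1 by 6439, whereas its exons cover 3809. For Gpc2 the length of 10912 bases even exceeds the 6351 bases that the gene spans. Close neighbours in the order are the most affected. With levels per kilobase of merged exons, Sdc4 (131) came before Gpc4 (124), Sdc1 (39.5) before Sdc2 (37.0) and Gpc6 (15.1) before Gpc1 (11.2) in the control group, while Ptn (151) stayed first.

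The genes around these members were examined in 9 lists of 160 genes written from general knowledge, of which 134 were tested. At the adjusted p-value, 27 were higher and 40 lower, together 50%, beside 34.8% of all genes tested. Both criteria were met by 5 higher and 5 lower genes, together 7.46%, beside 4.21%. From each list, up to 4 genes with the smallest p-values are named, and Ptprz1, Alk and Notum were added after their values were seen. By list, in the order given below, 61.5%, 53.3%, 45.5%, 30.8%, 37.5%, 61.5%, 41.2%, 66.7% and 25.0% of the tested genes passed the adjusted p-value. No set test was made, so nothing is called particular to a list. The list genes said to have risen or fallen passed an adjusted p-value of 0.05 in the edgeR fit, adjusted by Benjamini-Hochberg over all 13407 genes, and in each of them all 3 D-gal libraries lay on the same side of all 3 control libraries.

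Of 13 tested receptors of pleiotrophin and midkine, 1 was higher and 7 were lower, with a median log2 fold change of -0.21. Ptprz1, a receptor phosphatase inhibited by pleiotrophin, had 1.72 ± 0.159 FPKM for control and 1.38 ± 0.109 for D-gal (SD, n = 3), a log2 fold change of -0.36 (SE 0.09, adjusted p = 0.017). Alk, the receptor tyrosine kinase of this pathway, did not pass the filter. It had 0 counts in every control library and 5, 0 and 0 in D-gal replicates 1 to 3. Lrp1, an abundant endocytic receptor that binds midkine, fell from 169.7 ± 3.10 to 142.3 ± 2.73 FPKM (SD, n = 3), a log2 fold change of -0.29 (adjusted p = 7.2e-05). Itga6, an integrin subunit, was low and fell by 1.69 on the log2 scale (standard error 0.15). Ncl, nucleolin, fell by 0.23. Lrp2, the endocytic receptor megalin, was the exception and rose by 1.32 on the log2 scale (standard error 0.125) from a low level of 0.239 FPKM.

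Of 30 tested genes of heparan sulfate chain synthesis, 9 were higher, 7 lower and 14 did not pass, with a median log2 fold change of 0.06. Hs3st1, the 3-O-sulfotransferase that makes the antithrombin binding site, rose most, from 1.26 ± 0.217 to 4.41 ± 1.13 FPKM (SD, n = 3), a log2 fold change of 1.77 (SE 0.20, adjusted p = 0.00043). The changes that follow are log2 fold changes. Slc35d1, a transporter of UDP-sugars into the endoplasmic reticulum, rose by 0.58. Hs6st1, a 6-O-sulfotransferase, fell by 0.57 (standard error 0.04), and Ugdh, which makes the UDP-glucuronic acid that the chains need, fell by 0.50 (standard error 0.04).

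Of 11 tested genes of chain editing and breakdown, 4 were higher and 1 lower, with a median of -0.03. Sulf2, an extracellular 6-O-endosulfatase that trims the chains, was abundant and rose from 67.6 ± 1.41 to 92.8 ± 12.0 FPKM (SD, n = 3), a log2 fold change of 0.42 (SE 0.08). The lysosomal enzymes Arsg and Idua rose by 0.70 and 0.67, and Gusb fell by 0.16. In the list of chondroitin sulfate synthesis, the other chain type that binds these cytokines, 3 of 13 were higher and 1 lower, with a median of 0.01. Ust, a uronyl 2-O-sulfotransferase, rose by 1.69 (standard error 0.165) from 1.80 to 5.95 FPKM. Chst11, a 4-O-sulfotransferase, rose by 0.41 and Csgalnact2 by 0.24, and Csgalnact1 fell by 0.44.

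Of 8 tested proteoglycans that also carry such chains, including the glypican Gpc2, 3 were lower and 0 higher, with a median of -0.16. Together 37.5% passed, beside 34.8% of all genes tested. At an unadjusted p under 0.05 in edgeR, and at an adjusted p in DESeq2 or limma, 0 were higher too. These fits use the same libraries, and only 16.9% of all genes tested were higher, so nothing is read from the 0. Hspg2, which encodes perlecan of the basement membrane, fell from 88.3 ± 4.18 to 68.4 ± 1.02 FPKM (SD, n = 3), a log2 fold change of -0.40. Cd44, a hyaluronan receptor, fell by 0.57 and Col18a1, a basement membrane collagen, by 0.38. Of 13 tested genes that cut core proteins or release glypicans, 4 were higher and 4 lower, with a median of -0.15. Mmp2 and Mmp14, matrix metalloproteinases, fell by 0.51 and 0.47, while the proteases Adamts1 and Pcsk6 rose by 0.53 and 0.60. Notum, a Wnt deacylase, rose by 1.35 (standard error 0.18) from 0.621 to 1.63 FPKM.

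Of 17 tested partners of the syndecan cytoplasmic tails, 2 were higher and 5 lower, with a median of -0.07. Prkca, a protein kinase C that Sdc4 binds, fell by 0.54, Ezr, which links membranes to actin, by 0.47, Cask, a scaffold, by 0.23 and Cttn, cortactin, by 0.19. Of 21 tested heparin-binding growth factors and related proteins, 4 were higher and 10 lower, with a median of 0.03. Hgf, the ligand of Met, fell from 18.2 ± 0.406 to 7.61 ± 0.495 FPKM (SD, n = 3), a log2 fold change of -1.29, and Slit3, a guidance ligand, fell by 0.88. Fgf10 rose from 50.9 ± 1.10 to 78.5 ± 1.03 FPKM (SD, n = 3), a log2 fold change of 0.59. Igfbp5, an IGF binding protein with a heparin-binding stretch, rose from 1.05 ± 0.0372 to 15.0 ± 3.15 FPKM (SD, n = 3), a log2 fold change of 3.8. Of 8 Hedgehog readouts, 2 were lower and 0 higher (25.0% together, beside 34.8% of all genes tested), with a median of -0.12. At an unadjusted p under 0.05 in edgeR, or at an adjusted p in DESeq2 or limma, 0 were higher. Here too the libraries are the same, and with 16.9% of all genes tested higher, nothing is read from the 0. Hhip, a Hedgehog antagonist, fell by 1.02 and Smo, the signal transducer, by 0.16.

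Several of these list genes are uncertain, since the strand setting of the counting is not given. Another gene overlaps the exons of Hs6st1, Sulf2, Idua, Arsg, Notum, Prkca, Ezr, Fgf10 and Hhip on the other strand, and of Ncl, Ugdh, Pcsk6 and Hgf on the same strand. Itga6, Ncl, Cttn and Hgf share 5.95% to 7.37% of their words with other genes.

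**Figure D5:**
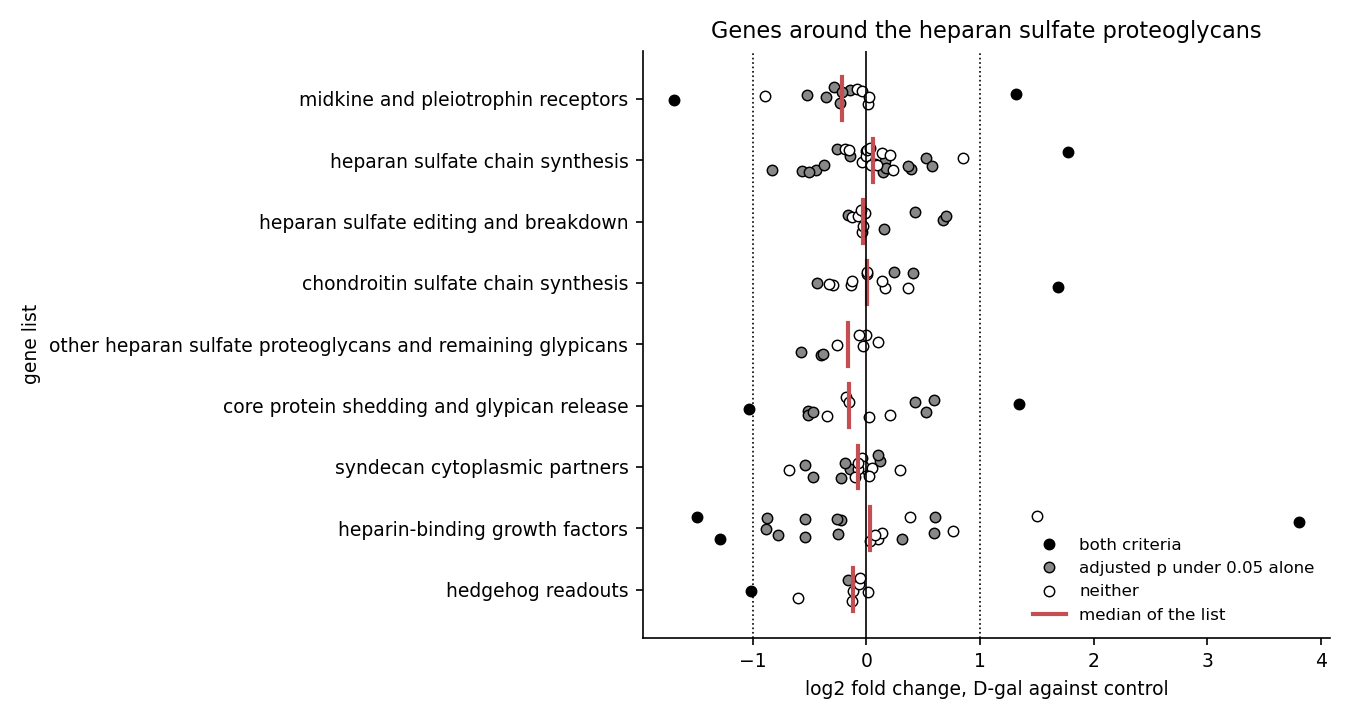
Log2 fold change of D-gal against control for the 134 tested genes of the 9 lists, with 1 point per gene and a red line at the median of each list. Black points met both criteria (10 genes), grey points the adjusted p-value alone and white points neither, and list medians lie between -0.21 and 0.06.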

How the data were processed

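RNA-seq libraries of 3 control and 3 D-gal samples of NOR-10 cells were analysed. Per the study's methods, low-quality reads were trimmed, and the submitters' processing notes name the aligner HISAT2 2.0.4. The authors deposited raw counts per gene and FPKM values, with coordinates that are those of GRCm38. The counting tool and its strand setting are not given in the sources used here.

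Counts were fitted with edgeR 4.0.16 (R 4.3.3): filterByExpr, TMM scaling, a quasi-likelihood test of D-gal against control without covariates, and Benjamini-Hochberg adjustment over 13407 genes. The biological coefficient of variation was 9.47%. FPKM served for levels of genes, sums and shares of families, marker sums and the limma alternative, and holds no TMM scaling. Dividing it by the TMM factor gave D-gal to control ratios of 0.323 for ligands, 0.955 for syndecans and 1.14 for glypicans. Totals were 13759108 to 20830349 counts. The steps were tested on simulated data. Alternatives used DESeq2 1.42.0, limma 3.58.1 with a pseudocount of 1 on FPKM, other filters, thresholds and lengths, a replicate block, and each library left out.

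The genes, lists and tests were chosen with earlier results of these data known. Named were all 10 genes, from each list up to 4 genes with the smallest p-values among those past the adjusted p-value, and the 3 genes most like Ptn. Other genes were added after their values were seen: the list genes Ptprz1, Alk and Notum, the other glypicans Gpc2 and Gpc5, and marker or overlapping genes beside the results they touch. Overlaps and shared 31-base words came from GENCODE M21.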

Additional observations from a re-analysis of the deposited data

How the results depend on the processing

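Ptn was the 1 member called under both criteria in every alternative that kept them, and with the adjusted p-value alone 6 members were called. Across the 12 refits of each of the 9 members, 106 of 108 log2 fold changes kept their direction and side of the threshold. The other 2 belonged to Gpc3, which reversed from -0.15 to 0.05 without D-gal replicate 2 and to 0.081 without control replicate 2 (range -0.42 to 0.08); its raw counts were 16 to 42. Of the list genes, 10 were called under both criteria, 5 with limma on log2(FPKM + 1) and 67 with the adjusted p-value alone; the cause was not tested. With each library left out, 8 to 11 list genes met both criteria and 52 to 59 the adjusted p-value. With lengths from merged exons, 4 of 10 members kept their place in the control order. The sums per family, with each library left out as an alternative chosen after seeing the data, gave ratios of 0.322 to 0.345 for ligands, 0.969 to 0.988 for syndecans and 1.15 to 1.18 for glypicans. Libraries of the same replicate number did not deviate together (correlations -0.0137, -0.00651 and 0.0259). A replicate block left 1 member called under both criteria and 6 at the adjusted p-value, and gave 9 and 58 list genes. Mdk, with 16 counts in all, was too shallow for a fold change.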

Other observations

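The remaining glypicans were scarce. Gpc2 had 125, 101 and 98 counts in controls 1 to 3, against 73, 72 and 68 with D-gal, a log2 fold change of -0.26 (standard error 0.14) that did not pass (adjusted p = 0.21, edgeR's quasi-likelihood test). Its normalized counts were 82.4 to 108.9 and 78.6 to 81.9, so after scaling every D-gal library was below every control library. Gpc2 shares 52.0% of its 31-base words with other annotated transcripts, and Gm43720 overlaps it on the same strand, so its counts are uncertain. Gpc5 had 1 count in all 6 libraries together.

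Among 10411 genes with a mean of at least 100 counts, those whose log2 normalized counts over the 6 libraries were most like those of Ptn were Adam23, a cell surface protein of the ADAM family without protease activity (Pearson r = 0.9998), Anxa8, a calcium-dependent phospholipid-binding annexin (r = 0.9997), and Itm2b, a membrane protein also known as BRI2 (r = 0.9996). Anxa8 went from 2032 ± 45.2 to 497.6 ± 48.3 normalized counts, Adam23 from 344.6 ± 3.51 to 195.4 ± 6.05 and Itm2b from 5538 ± 15.0 to 4647 ± 45.3 (SD, n = 3). The measure follows the shape over libraries and not the size, and 250 genes had r over 0.99. All 6 points share the split into the same groups of 3. Mdk was not compared in this way, because it did not pass the filter.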
